A study of Mus musculus with 12 samples.

Results

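The 42 genes described here code for lysosomal hydrolases, lysosomal membrane proteins, subunits of the lysosomal proton pump and a few regulators of the organelle. The list of genes was chosen with earlier results of these data known. Its genes were looked up by symbol in 6 lists of N4-acetylcytidine (ac4C) peaks. A gene had a peak when the authors' annotation put the centre of the peak inside it. Of the 42 genes, 19 had a peak in at least 1 list, and they are among 1779 protein-coding genes with a peak anywhere. The lists come from cultured mouse peritoneal macrophages that had been given interferon-γ (IFN-γ, IFN-G in the labels) for 0, 24 or 48 h. The study holds 12 samples in 6 groups of 2, an ac4C pull-down group and a total RNA group at each time, and each time has 2 peak lists. The lists are numbered 1 and 2 within a time, and their names show the time but not the sample, so equal numbers at different times pair nothing. All cells are labelled IFN-γ, and no group was kept without it for 24 or 48 h, so the cytokine and the hours in culture cannot be told apart. The labels give no strain, sex or age, and do not state whether 2 samples of the same time are from different mice or cultures, so the spread between 2 lists may be technical.

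Lysosomes are the acidic compartments in which a cell takes macromolecules apart. A proton pump of the V-ATPase family, built from a membrane-bound V0 part and a cytosolic V1 part, acidifies the lumen, and soluble hydrolases such as cathepsins, glycosidases and lipases need that acidity. In macrophages the organelle digests engulfed material and prepares peptides for presentation on MHC class II molecules. ac4C is cytidine carrying an acetyl group, which the enzyme NAT10 adds in ribosomal RNA, transfer RNA and, as reported for some cell types, messenger RNA. In this assay (RIP-seq) RNA pulled down through its ac4C is sequenced, and a peak marks a stretch where the pull-down exceeds a control.

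The lists differed in depth and in length. Control coverage, recovered from the authors' fold and p, ran from 44.5% to 100% of that of the deepest list and was lowest at 48 h. The lists held 611 to 1151 peaks over 463 to 825 protein-coding genes, and the 0 h lists were the longest. Of 11 macrophage markers 3 had a peak (Itgam, Lyz2 and Mrc1), while Adgre1, Csf1r and Cd68, the last also a gene of the set, had none. Of 29 markers of other cells of the peritoneum 1 did, the mesothelial gene Wt1 in 1 list. A list gives no level below its threshold, so these counts do not measure how pure the cells were, and a gene without a peak is not thereby a gene without transcript.

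Lysosomal genes had peaks at every time. Of the 13 with a peak at 0 h, both 0 h lists held 6, beside 32.2% over all protein-coding genes with a peak then. At 24 h it was 2 of 12, beside 23.6%, and at 48 h 1 of 9, beside 22.9%. The 0 h lists held 11 and 8 of the 42 genes, the 24 h lists 9 and 5, and the 48 h lists 5 and 5. The mean number of lysosomal genes was 9.5 ± 2.12 at 0 h, 7 ± 2.83 at 24 h and 5 ± 0 at 48 h (SD, n = 2 lists each), and the ranges at 0 h and 24 h overlapped. Over all protein-coding genes the means were 763.5 ± 87.0, 502.5 ± 40.3 and 491 ± 39.6 (SD, n = 2 lists each). Relative to 0 h the log2 ratio of the means was -0.44 at 24 h and -0.93 at 48 h for the lysosomal genes, and -0.60 and -0.64 for all genes. A peak in any list was found for 45.2% of the 42 genes, beside 8.12% of the 21907 protein-coding genes of the reference table. That table includes genes that macrophages do not express, and these shares were not matched for transcript level. The set was chosen with earlier results known, and what that choice contributes to its share was not tested. At least 3 lists held 7 of the 19 genes with a peak, 36.8%, beside 24.7% of all genes with a peak.

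**Figure D1:**
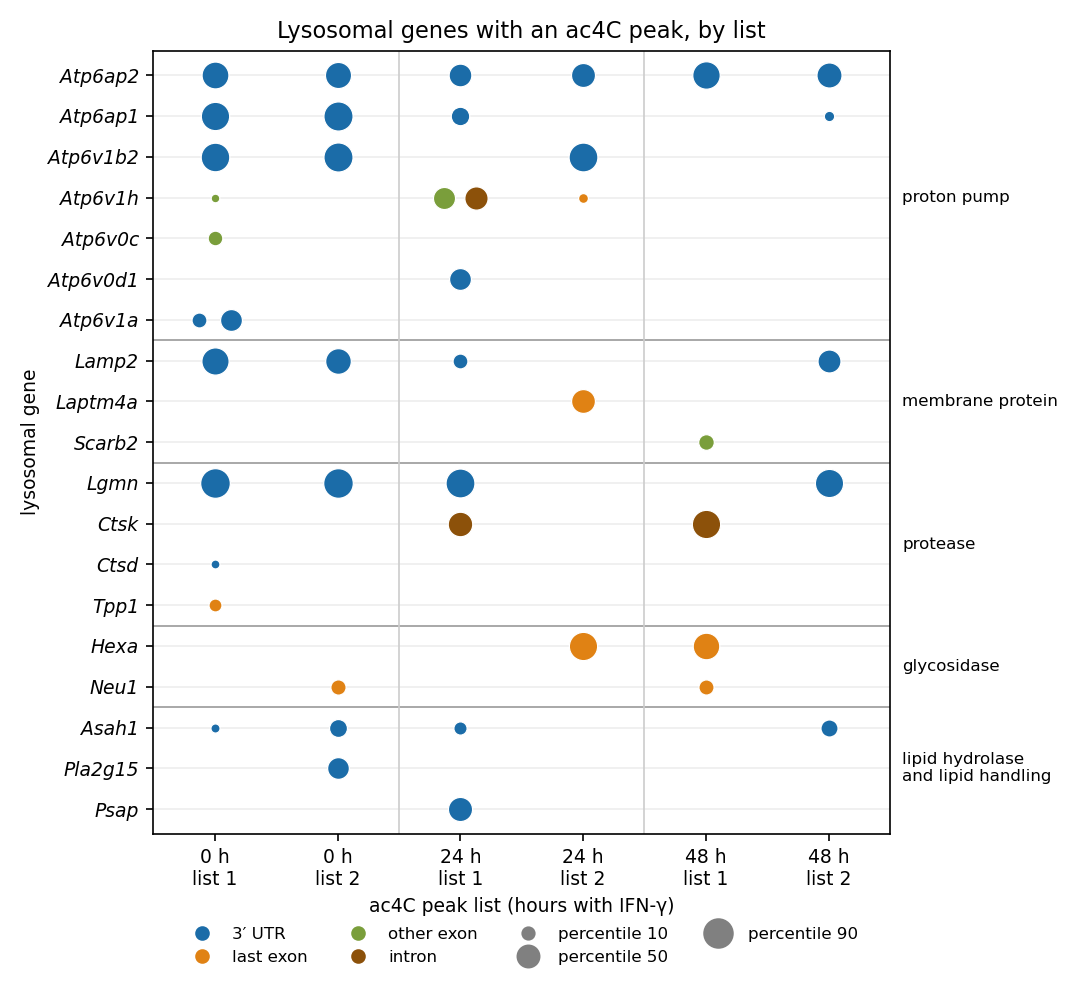
Each dot is an ac4C peak of a lysosomal gene (rows, grouped by role) in a peak list (columns, by hours with IFN-γ). Colour gives the place of the centre of the peak and dot area rises with the percentile of its p within its list, and 2 dots side by side are 2 peaks of a gene in 1 list. Atp6ap2 has a dot in all 6 columns, and Lgmn, Lamp2, Atp6ap1 and Asah1 share the same 4 columns.

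Only a single lysosomal gene, Atp6v1b2, lost its peak at 48 h against 0 h, where a loss means a peak in neither list of the later time and in both lists of the earlier. Both 0 h lists held 6 of the lysosomal genes (Atp6ap1, Atp6ap2, Atp6v1b2, Lamp2, Lgmn and Asah1), of which 0 were lost at 24 h and 1 at 48 h. Of the 372 protein-coding genes that both 0 h lists held, 41.4% were lost at 24 h and 37.9% at 48 h. A sustained loss, with no peak in any of the 4 later lists, was found for 0 of the 6, beside 27.2% of all such genes. Of the 5 lysosomal genes with a peak at 24 h and none at 0 h, 0 were gained in both 24 h lists, beside 11.0% of all such genes. Of the 3 such genes at 48 h, 0 were gained, beside 13.1%. A sustained gain was found for 0 of 6, beside 1.28%. Against 24 h, 1 of 2 lysosomal genes was lost at 48 h (Atp6v1h), beside 24.5% of all genes, and 0 of 2 were gained, beside 10.6%. Present in all 6 lists was 1 of the 19, Atp6ap2, beside 3.32% of all genes with a peak. No test was run on these counts, since 2 lists against 2 cannot go below a two-sided exact permutation p of 0.333 for any gene, and both later times were set against the same 0 h lists.

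These classes depended on how strong a peak had to be. With peaks limited to a q of 0.05 or less, Lamp2, Atp6ap1 and Atp6ap2 were lost at 24 h and Lamp2, Atp6ap1 and Atp6v1b2 at 48 h, so that Lamp2 and Atp6ap1 had a sustained loss. Both 0 h lists held 5 of the lysosomal genes at that q, so 3 of 5 were lost at each later time and 2 of 5 throughout, beside 50.5% at 24 h, 48.5% at 48 h and 38.5% throughout of all genes. Of the 6 genes that both 0 h lists held, 5 had a peak in 24 h list 1 and 5 in 48 h list 2, and 2 had a peak in 24 h list 2 and 1 in 48 h list 1. Of the 372 genes the same lists held 47.3% (24 h list 1), 45.7% (48 h list 2), 39.8% (24 h list 2) and 41.9% (48 h list 1). Without 24 h list 1, 4 of the 6 were therefore lost at 24 h (Lamp2, Lgmn, Asah1 and Atp6ap1), beside 60.2% of all genes. Without 48 h list 2 those 4 and Atp6v1b2, 5 of the 6, were lost at 48 h, beside 58.1%. Without 0 h list 2, 4 genes that 0 h list 1 alone held (Ctsd, Tpp1, Atp6v0c and Atp6v1a) counted as lost at 24 h, 4 of 11 beside 57.7% of all genes, and they were among the 6 of 11 lost at 48 h, beside 53.3%.

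The proton pump held the most genes with a peak for its size, 7 of its 8 listed subunits and accessory proteins, beside 12 of the other 34 genes. Atp6ap2 (ENSMUSG00000031007), an accessory protein of the pump also known as the prorenin receptor, had a peak in its 3′ UTR on chromosome X, at 12482397 to 12482874 (GRCm39) in 0 h list 1. At its summit the pull-down held 186 and 145 fragments in the 0 h lists, 155 and 142 in the 24 h lists, and 129 and 120 in the 48 h lists. The control coverage there was 36 and 29 in the 0 h lists, 22 and 22 in the 24 h lists, and 11 and 11 in the 48 h lists, counted in fragments and not scaled for depth. In these raw counts the pull-down overlapped between 0 h and 24 h and was lower in both 48 h lists. Pull-down depth, relative to the deepest list, was 91.5% and 78.0% at 0 h and 100% and 98.0% at 24 h. It was 78.0% and 68.5% at 48 h, so the raw pull-down counts do not rank the times at equal depth. The raw control was separate at each time, highest at 0 h and lowest at 48 h. In multiples of the genome background of each list, the control stood at 44.1 and 38.8 in the 0 h lists, 36.5 and 33.3 in the 24 h lists, and 23.5 and 30.2 in the 48 h lists, so the times kept that order without overlap. The authors' fold enrichment, the ratio of the scaled pull-down to the control with 1 added to each, was 2.22 and 2.3 in the 0 h lists, 2.03 and 2.08 in the 24 h lists, and 3.23 and 2.68 in the 48 h lists. The depth-scaled ratio without the added 1 had a 95% exact binomial interval of 1.57 to 3.32 in 0 h list 1 and of 1.86 to 7.06 in 48 h list 1. These intervals overlap, and they cover counting error only. The 6 summits lay within 74 bases of each other.

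Atp6ap1 and Atp6v1b2 also had strong 0 h peaks. Atp6ap1 (ENSMUSG00000019087), an accessory subunit that assists assembly of the pump, had a 3′ UTR peak on chromosome X at 73347722 to 73348134 in 0 h list 2. Its summit held 206 and 182 pull-down fragments at 0 h, 108 in 24 h list 1 and 77 in 48 h list 2, with folds of 2.68, 3.92, 2.05 and 1.91 in that order. The 0 h peaks had a −log10 q of 10.5 and 20.1, whereas the later peaks had a q of 1, and 24 h list 2 and 48 h list 1 had none. Atp6v1b2 (ENSMUSG00000006273), the B subunit of the V1 part, had a 3′ UTR peak on chromosome 8 at 69565985 to 69566302 in 0 h list 2. Its summit held 470 and 410 fragments at 0 h and 314 in 24 h list 2, over a control coverage of 107, 81 and 42. The folds were 1.91 and 2.35 at 0 h and 2.43 in 24 h list 2, and the −log10 q was 11.7, 19.5 and 9.69. Neither 48 h list nor 24 h list 1 held it, although the peak of 24 h list 2 ranked at percentile 93.0 of that list by p. With control coverage of all lists matched to the shallowest, Atp6v1b2 was still the gene lost at 48 h.

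The other pump genes had weaker or scattered peaks. Atp6v1h, the regulatory H subunit, had 4 peaks over 3 merged regions: exon 10 in 0 h list 1, exon 4 and the last intron in 24 h list 1, and the last exon in 24 h list 2. The last-intron and last-exon peaks overlapped. Their −log10 q were 0 to 1.00, and their summits held 16 to 24 pull-down fragments, so the loss of Atp6v1h at 48 h against 24 h rests on weak peaks. At equal list length it was absent. Atp6v1a, the subunit that hydrolyses ATP, had 2 peaks in its 3′ UTR in 0 h list 1 only, at folds of 1.42 and 1.78. Atp6v0c, which forms the proton-carrying ring, had an exon 2 peak in 0 h list 1 with 14 fragments and a q of 1. Atp6v0d1 had a 3′ UTR peak in 24 h list 1 only, with 152 fragments and a fold of 1.99. Atp6v0a1 had none.

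**Figure D2:**
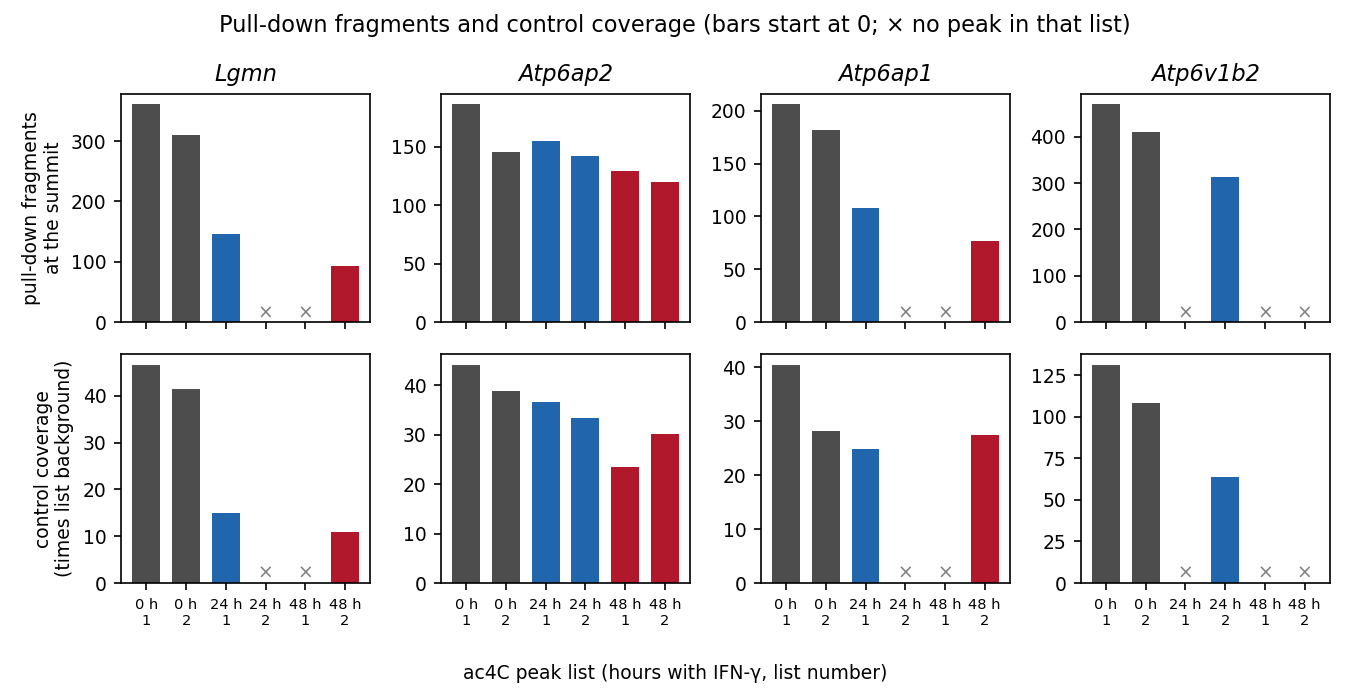
Bars give the pull-down fragments at the summit (upper row) and the control coverage in multiples of the genome background of the list (lower row) for 4 lysosomal genes in the 6 lists, 0 h in grey, 24 h in blue and 48 h in red. The pull-down fragments are not scaled for the depth of the list, so the 2 rows are on unlike scales. A cross marks a list without a peak of the gene, for which no value exists. For Lgmn both rows are highest in the 2 lists of 0 h, at 361 and 311 fragments.

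Among the proteases, Lgmn had the strongest peak of the whole set. Lgmn (ENSMUSG00000021190) encodes legumain, which cuts after asparagine and processes cathepsins and antigens. Its peak lay in the 3′ UTR on chromosome 12 at 102360442 to 102360754 in 0 h list 2, with its centre 203 to 241 bases from the annotated end of the gene in the 4 lists that held it. The summit held 361 and 311 pull-down fragments at 0 h, 146 in 24 h list 1 and 93 in 48 h list 2. The control coverage was 38 and 31 at 0 h, 9 in 24 h list 1 and 4 in 48 h list 2. Scaled to the background of each list, the control stood at 46.5 and 41.5 at 0 h, 14.9 at 24 h and 11.0 at 48 h, so it too was lower in the later lists that held the peak. The fold was 4.07 and 4.58 at 0 h, 4.4 in 24 h list 1 and 5.03 in 48 h list 2. The depth-scaled ratio was 4.15 (95% exact binomial interval 2.97 to 5.96) in 0 h list 1 and 6.03 (2.28 to 22.6) in 48 h list 2, which overlap. Lgmn ranked at percentile 98.9 and 98.5 of the 0 h lists, 93.7 of 24 h list 1 and 88.7 of 48 h list 2, and its q was under 1e-05 in each. No peak of it was found in 24 h list 2 or 48 h list 1.

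Ctsk was the only lysosomal gene whose peaks all lay in an intron. Ctsk (ENSMUSG00000028111), the collagen-degrading cathepsin K, had its peak in intron 1 on chromosome 3, at 95407143 to 95407365 in 24 h list 1 and 95407154 to 95407362 in 48 h list 1. The summits held 48 fragments over a control of 3 at 24 h and 63 over a control of 2 at 48 h, with folds of 3.78 and 6.49. No other 24 h or 48 h list and neither 0 h list held it. The fold at 48 h was the highest of the 45 peaks of lysosomal genes, over a control of only 2 fragments. Its depth-scaled ratio of 9.23 had a 95% exact binomial interval of 2.45 to 77.9. Ctsd, the abundant aspartic protease cathepsin D, had a 3′ UTR peak in 0 h list 1 only, at a fold of 1.17, with 661 fragments over a control of 246 and a q of 1, and the peak also lay on the locus Gm49369. Tpp1, a tripeptidyl peptidase, had a last-exon peak in 0 h list 1 only, with a q of 1. The cathepsin genes Ctsa, Ctsb, Ctsc, Ctsh and Ctsz had no peak.

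Of the 8 membrane proteins 3 had a peak, and Lamp2 was the most frequent. Lamp2 (ENSMUSG00000016534), a heavily glycosylated protein of the lysosomal membrane with a part in autophagy, had its peak in the 3′ UTR on chromosome X at 37508441 to 37509208 in 0 h list 1, the longest of the 45 at 767 bases and with 3 summits. Its strongest summit held 95 and 91 fragments at 0 h, 52 in 24 h list 1 and 60 in 48 h list 2. The folds were 3.36 and 2.78 at 0 h, 2.26 in 24 h list 1 and 3.38 in 48 h list 2, and the −log10 q was 6.47, 4.17, 0 and 0.85. The strongest summits of the 4 lists lay within 29 bases of each other. Laptm4a, a small membrane protein of late endosomes and lysosomes, had a last-exon peak in 24 h list 2 only, with 94 fragments. Scarb2, the receptor that carries glucocerebrosidase to lysosomes, had an exon 1 peak in 48 h list 1 only, with 20 fragments and a q of 1. Lamp1, Cd63, Cd68, Laptm5 and the calcium channel gene Mcoln1 had none.

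The glycosidase Hexa had peaks only after 0 h. Hexa (ENSMUSG00000025232), the α subunit of β-hexosaminidase, had its peak in the last exon on chromosome 9, at 59472105 to 59472328 in 24 h list 2 and 59472116 to 59472370 in 48 h list 1. The summits held 102 and 117 fragments over controls of 8 and 11, with folds of 3.85 and 2.94 and −log10 q of 5.93 and 3.31, and they lay 18 bases apart. As 1 of the 2 lists of each later time held it, Hexa was not counted as gained. Neu1, a sialidase, had a last-exon peak in 0 h list 2 and in 48 h list 1 with 23 and 19 fragments and a q of 1 in each. Gaa, Gla, Glb1, Gusb and Man2b1 had no peak.

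Among the genes of lipid breakdown Asah1, Pla2g15 and Psap had peaks. Asah1, the acid ceramidase, had a weak 3′ UTR peak in 4 lists, with 53 and 64 fragments at 0 h, 64 in 24 h list 1 and 49 in 48 h list 2. Its −log10 q did not exceed 0.2 in any of them, yet the 4 summits lay within 57 bases of each other. Pla2g15, a lysosomal phospholipase, had a 3′ UTR peak in 0 h list 2 only, with 28 fragments and a fold of 3.53. Psap, the precursor of the saposins that assist lipid hydrolases, had a 3′ UTR peak in 24 h list 1 only, with 583 fragments over a control of 117, where the −log10 q was 1.39 and the fold 1.46. Lipa, Npc1, Npc2 and Smpd1 had no peak. The regulators Tfeb, the transcription factor of lysosomal genes, Tmem55b (Pip4p1 in the current nomenclature) and Grn had none either.

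The peaks of lysosomal genes lay mostly in 3′ UTRs. Of the 45 peaks 31 had their centre in a 3′ UTR, 68.9%, beside 53.9% of the 4354 peaks of all lists that were centred in genes. By list the share was 75% and 87.5% at 0 h, beside 61.0% and 55.0%. It was 70% and 40% at 24 h, beside 47.4% and 41.0%, and 20% and 100% at 48 h, beside 49.8% and 64.8%. A further 7 lay in last exons, 4 in other exons and 3 in introns, and 0 in 5′ UTRs. By gene, 11 of the 19 had 3′ UTR peaks and no others. Of the 7 genes in 3 or more lists 6 had 3′ UTR peaks only, Atp6v1h being the exception, and 5 of the 12 genes in 1 or 2 lists did. Among the peaks of those genes the 3′ UTR share was 86.2% of 29 and 37.5% of 16. Over all protein-coding genes the same shares were 56.8% and 58.0%. Counts of peaks within a gene are not independent, since the same region recurs between lists. A 3′ UTR region found in several lists therefore counts several times in the 68.9%, so that share is not one of separate regions.

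Where a lysosomal gene had peaks in several lists, they were at the same place. The 45 peaks merged into 22 regions at an overlap of 1 base, of which 10 recurred in 2 or more lists. Of the 10 genes with a peak in 2 or more lists, 9 had a single region present in all of their lists, the exception being Atp6v1h.

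The 5 lysosomal genes of 48 h list 2 were all among the 9 of 24 h list 1. All 5 also had a peak in both 0 h lists. Of these 5, 1 (Atp6ap2) had a peak in 48 h list 1 and in 24 h list 2. Of all protein-coding genes of 48 h list 2, 42.8% had a peak in 24 h list 1 and 39.5% in 48 h list 1. The shares were 55.5% and 47.5% in 0 h lists 1 and 2, and 35.9% in 24 h list 2. The pattern of both 0 h lists, 24 h list 1 and 48 h list 2 and no other was shown by 4 genes, Lgmn, Lamp2, Atp6ap1 and Asah1, and the other 3 ways to have both 0 h lists and 1 list of each later time were shown by 0. Over all protein-coding genes 49 had both 0 h lists and exactly 1 list of each later time, 15 of them with the pattern of those 4, and 15, 12 and 7 with the other patterns. The 3′ UTR held 47.4% of all peaks in genes in 24 h list 1 and 41.0% in 24 h list 2, while it held 49.8% in 48 h list 1 and 64.8% in 48 h list 2. In lysosomal genes the counts were 7 of 10 and 2 of 5 at 24 h, and 1 of 5 and 5 of 5 at 48 h. The part of this difference between lists in the pattern of the 4 genes was not tested.

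Strong and weak peaks of lysosomal genes spanned nearly the whole range of the lists. The percentile of p within a list ran from 1.22 (Atp6v1h in 0 h list 1) to 98.9 (Lgmn in 0 h list 1), with a median of 58.1. A q of 1 was given to 15 of the 45 peaks, 33.3%, beside 34.2% of all peaks in genes, and 21 had a q of 0.05 or less, 46.7% beside 43.9%. The summits of lysosomal peaks were richer in fragments, with a median of 95 pull-down fragments over a median control of 11.6, beside 46 over 4.52 for all peaks in genes. By list, their median control was 34.5 and 17.8 at 0 h, beside 6.00 and 5.95 for all peaks. It was 8.83 and 12 at 24 h, beside 3.55 and 4, and 2 and 4 at 48 h, beside 3 and 3. Their median fold was 2.68, beside 3.04. The 3 lowest folds stood over high control coverage. Ctsd at 301.1 times, Psap at 194.3 times and Atp6v1a at 85.7 times the background of their list had folds of 1.17, 1.46 and 1.42. Atp6v1b2, at 109 and 131 times the background in the 0 h lists, had folds of 2.35 and 1.91. Lgmn at 41.5 and 46.5 times the background had folds of 4.58 and 4.07.

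**Figure D3:**
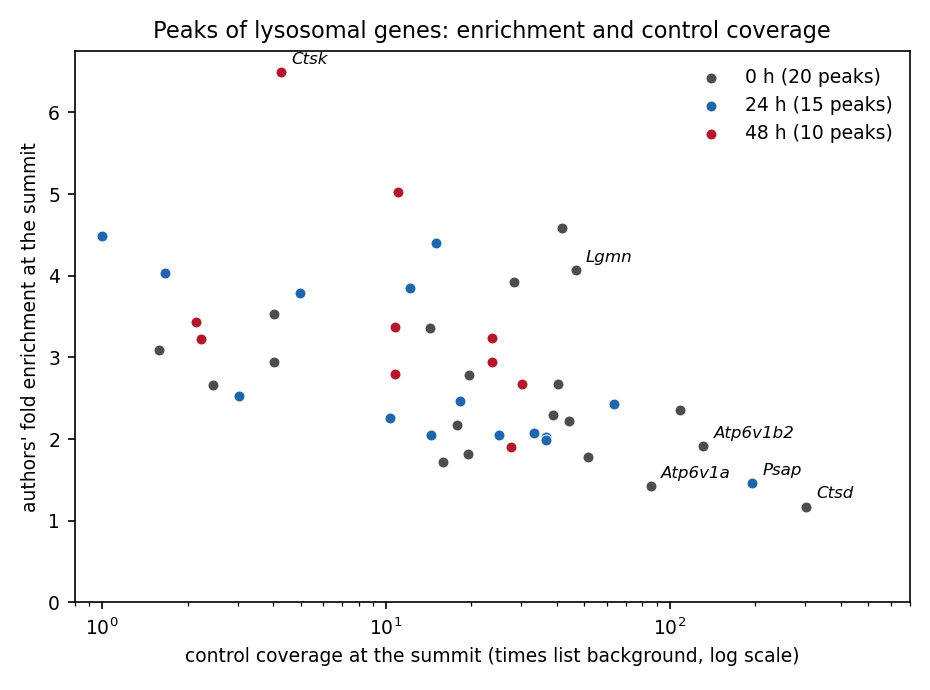
Each point is a peak of a lysosomal gene, with the control coverage at its summit in multiples of the genome background of its list (log axis) and the authors' fold enrichment, 0 h in grey, 24 h in blue and 48 h in red. Ctsd, Psap and Atp6v1a lie at the lower right with folds of 1.17 to 1.46, and the Ctsk peak of 48 h list 1 is highest at 6.49.

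A smaller share of other lysosomal genes had a peak. Of 72 further genes (hydrolases, transporters, pump subunits, sorting receptors and nutrient sensors), 16 had a peak in any list, 22.2%, where the set had 45.2%. Both sets were chosen with earlier results of these data known, and what that contributes to the 2 shares was not tested. The 0 h lists held 8 and 9 of them, the 24 h lists 4 and 7, and the 48 h lists 5 and 5. Found in 3 or more lists were Rab7, a small GTPase of late endosomes, and the pump subunit gene Atp6v1c1 in 6 each, the pump subunit gene Atp6v1g1 in 5, Ctss, a protease of MHC class II presentation, in 4, and Igf2r, a sorting receptor, and Lamtor2, a scaffold of nutrient sensing, in 3 each. Rab7 and Igf2r had their peaks in the 3′ UTR, Ctss in the last and another exon. Against 0 h, 2 of 5 that could be lost were lost at 24 h (Igf2r and Dnase2a), beside 41.4% of all genes, and 1 of 5 at 48 h (Dnase2a), beside 37.9%. Of 4 that could be gained at 24 h, 2 were (Ctss and Lamtor2), beside 11.0%, and of 2 at 48 h, 1 was (Ctss), beside 13.1%. The highest −log10 q was 0 for Lamtor2, so its gain rests on weak peaks, and 49.9 for Ctss. Dnase2a was the 1 of 5 with a sustained loss, beside 27.2%, and Ctss the 1 of 4 with a sustained gain, beside 1.28%. Among the further genes alone, 5 of 10 pump genes had a peak, 50%, beside 11 of the 62 others, 17.7%. Of the 18 pump genes of both sets, which include the 7 of 8 given above, 12 had a peak, 66.7%. In 3 or more lists were 6 of these 18. Of the 96 other lysosomal genes 23 had a peak, 24.0%, with 7 in 3 or more lists. Ctss and Rab7 were known to have peaks when the further genes were listed.

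Some promoters of the set hold a sequence known from lysosomal genes. Whether that sequence bore on the choice of the set is not known, so its shares may partly reflect the choice. TFEB and related factors bind a CACGTG core, known in lysosomal promoters as the CLEAR element. RefSeq promoter windows of 300 bases were searched (GRCm38.p6, which differs from the build of the peaks). CACGTG, which reads the same on both strands, was present for 11 of the 36 genes with a window, 30.6%, beside 8.09% of 27025 genes. Those 27025 were not limited to protein-coding genes. No window was available for Asah1, Atp6v1b2 and Atp6v1h, which had peaks, or for Ctsb, Ctsh and Npc1. The longer TCACGTGA, which contains it, was present for 7 of the 36, 19.4%, beside 1.12%. Genes with an ac4C peak held CACGTG in 4 of 16 cases, beside 7 of 20 for genes without a peak. These DNA windows lie mostly outside the transcripts that the pull-down measured, and a match is a description and not a binding site. The 4 genes with both a peak and a match are printed here with 11 bases on each side, written 5′ to 3′ on the strand of the gene, with CACGTG in capitals.
Lgmn, chr12:102439125-102439152, minus strand: ggaatgtctgtCACGTGgtccattttat
Ctsd, chr7:142387909-142387936, minus strand: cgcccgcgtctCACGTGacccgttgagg
Atp6v1a, chr16:44139374-44139401, minus strand: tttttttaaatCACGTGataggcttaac
Atp6v0d1, chr8:105566051-105566078, minus strand: cctactgcggtCACGTGagacgcggtgc
The peak sequences themselves were not used here.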

How the data were processed

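Rows of the deposited tables pair a summit with an overlapping gene and carry the annotation made by the authors. BWA 0.7.12, MACS2 2.1.0 and the mouse build GRCm39 are named per the submitters' processing notes, with roles, settings and the control library not given in the sources used here. Fold enrichment is the authors' ratio, and the headers name p and q as −log10 values, as deposited. The smallest −log10 p of a list is 2.30 to 2.33. A q of 1 is a −log10 q of 0. Of the total RNA samples no file was analysed here.

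Summits with the same coordinates (printed as deposited) were joined to 1 peak, which took the strength of its best summit. Genes were named by the authors' symbols, and protein-coding genes by the RefSeq table of GRCm38.p6, which matched 94.4% of 2095 symbols and all 42 genes of the set. The fragments of each summit were recovered as a whole number, given the depth factor of the list: the fold divides the scaled fragments plus 1 by the control plus 1, and p is an upper Poisson tail. In each list 100% of summits gave a value within 0.03 of a whole number. Where a neighbouring window or the genome background exceeded the control at the summit, the control is that background. Relative depth is the lowest control of a list and assumes the same fragment length in all lists. The recovery and the class rules were tested on simulated data. Intervals are 95% exact binomial intervals where the control was a whole number.

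The set, the further lysosomal genes and the role groups were chosen with earlier results of these data known, so no p was computed over them. All genes of the set with a peak were named, and further genes if found in 3 or more lists or counted as lost or gained. Python 3.11.15, pandas 2.3.3, numpy 2.4.6 and scipy 1.17.1 were used.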

Additional observations from a re-analysis of the deposited data

How the results depend on the processing

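Of 158 alternative values of 19 counts, 100 stayed within 1.5 times the value reported. At a q of 0.05 or less, 9 genes had a peak in any list, and the lists held 6 and 5 (0 h), 3 and 2 (24 h), and 3 and 2 (48 h). There were then 3 losses of 5 at 24 h and 3 of 5 at 48 h against 0 h, and 2 sustained losses of 5. Against 24 h, 1 of 1 was gained at 48 h (Atp6ap2), beside 12.4% of all genes. None could be lost there, as both 24 h lists held 0 of the genes. Of the 9 genes 0 were in all 6 lists, beside 2.64%, and 17 of the 21 remaining peaks lay in 3′ UTRs. At a q of 1e-05 or less, 7 genes had a peak, among 337 protein-coding genes with a peak. The lists held 5 and 3 (0 h), 1 and 2 (24 h), and 1 and 1 (48 h). Losses were then 1 of 3 at 24 h and 2 of 3 at 48 h against 0 h, with 1 of 3 sustained (54.3%, 56.2% and 41.9% of all genes). Both 24 h lists held 0 of the genes, so none could be lost at 48 h against 24 h. In all 6 lists were 0 of the 7, beside 2.67%. At a fold of 4 or more, 3 genes had a peak, among 630 protein-coding genes with a peak. The lists held 1 and 1 (0 h), 2 and 0 (24 h), and 1 and 1 (48 h). Losses at 48 h against 0 h were 0 of 1, beside 56.4% of all genes, and none could be lost against 24 h. In all 6 lists were 0 of the 3, beside 0.317%. At equal list length (611 peaks) and at matched control coverage 0 h list 1 held 6 genes. Losses at 48 h against 24 h were 0 of 1 in each, beside 21.2% and 16.8% of all genes. At matched coverage 1 of 5, Lamp2, was lost at 24 h against 0 h, beside 43.7%. Assigning genes by exon or by any overlapping base, the other precedence of places and an overlap of 50% of the shorter peak moved no count by more than 1.5 times.

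Without 1 of the lists in turn, losses ranged from 1 to 4 at 24 h and from 1 to 6 at 48 h against 0 h, and from 1 to 3 at 48 h against 24 h. Gains ranged from 0 to 3, 0 to 3 and 0 to 2 in the same order, with the highest values fixed by the rule, as given below. Sustained losses ranged from 0 to 4, sustained gains were 0 throughout, and the gene in all remaining lists was 1 throughout. Losses at 24 h against 0 h were 2 of 8 without 0 h list 1 and 4 of 11 without 0 h list 2. They were 4 of 6 without 24 h list 1 and 1 of 6 without 24 h list 2. Losses at 48 h against 0 h were 2 of 8 without 0 h list 1, and 6 of 11 without 0 h list 2. Without 48 h list 2 they were 5 of 6. Of all genes 52.7% to 60.2% were lost at 24 h and 53.3% to 58.1% at 48 h against 0 h without a list. Losses at 48 h against 24 h were 3 of 5 without 24 h list 1, beside 48.7% of all genes. Without 24 h list 2 they were 3 of 9, beside 46.3%. Sustained losses were 1 of 8 without 0 h list 1 (Pla2g15), beside 43.4%, and 4 of 11 without 0 h list 2, beside 41.9%. Without 24 h list 2 they were 1 of 6 (Atp6v1b2), beside 30.4%. Gains at 24 h were 1 of 6 without 0 h list 1, beside 13.0% of all genes. Without 1 list of the later time, every gene that the remaining list alone adds counts as gained, 100% of all such genes. Such gains are fixed by the rule and are no result. At 24 h they were 2 of 2 without 24 h list 1 (Hexa and Laptm4a) and 3 of 3 without 24 h list 2 (Ctsk, Psap and Atp6v0d1). Without 48 h list 2 they were 3 of 3 against 0 h (Ctsk, Hexa and Scarb2) and 2 of 2 against 24 h (Scarb2 and Neu1). The causes of the differences between lists were not tested. No paired analysis was possible because the list numbers pair no samples and no count comes from a test. Control coverage was lowest in the 48 h lists, and pull-down depth was 78.0% and 68.5% of the deepest list there, against 91.5% and 78.0% in the 0 h lists. What depth contributes to a missing peak was not tested beyond the matched coverage above, under which Atp6v1b2 was still lost at 48 h.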
